A study of Mus musculus with 15 samples.

Results

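Zfp genes are the mouse genes named zinc finger protein and a number. They were taken as all protein-coding genes with a symbol of Zfp followed by digits alone in the deposited gene table of a developmental time series. The rule found 292 genes among 10781 in the table, of which 10199 were protein-coding, and all 292 were also found in the gene table of a sort made at E14. The rule rests on names alone and uses no measured value. The time series itself, however, lists only genes with a mean of at least 107 normalized reads in its GFP+ cells. The GENCODE M21 annotation holds 365 protein-coding genes with such a symbol, and those outside the time series table were not analysed here.

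RNA was measured in ventral midbrain cells of Pitx3-GFP mice, whose green fluorescent protein (GFP) marks cells with activity of Pitx3, a transcription factor gene of midbrain dopamine neurons. All groups carried the Pitx3-GFP genotype and were purified by fluorescence-activated cell sorting, with 3 libraries per group. The time series held GFP+ cells of embryonic day 14 (E14), of E16 and of newborn pups (P0), and a separate experiment at E14 held GFP+ and GFP- cells. The submitters used midbrains of 3 litters without saying whether a replicate is a litter, so p-values measure the spread between these libraries, which may be technical. The time series libraries held 17910017 to 33386535 gene reads and the sorted libraries 17369191 to 22374153. The labels call the GFP- samples dopamine neurons too, but they held little RNA of the markers: Pitx3 had a mean of 7.40 normalized reads (SD 1.19, n = 3) in GFP- cells against 1106 (SD 216) in GFP+ cells, and the sum of 9 dopamine neuron markers ranged from 5006 to 6507 against 76097 to 83752. GFP- cells stand for the other sorted midbrain cells, with 66923 to 80479 normalized reads of 7 progenitor markers against 6619 to 7977 in GFP+ cells.

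Most Zfp proteins are DNA-binding proteins built from rows of C2H2 zinc fingers, in which a pair of cysteines and a pair of histidines hold a zinc ion and the residues between them read DNA bases. Many also begin with a Krüppel-associated box (KRAB), which recruits Trim28 (also called KAP1). Trim28 in turn brings the histone methyltransferase Setdb1, HP1 proteins and the NuRD deacetylase complex, and this system is best known for silencing retroviral elements and protecting imprinted genes in the early embryo. KRAB zinc finger genes lie in clusters of related copies. From the proteins of the annotation, 173 of the 292 genes had a KRAB A box (at least 9 of 16 conserved positions) and 119 did not. The genes encoded a median of 11 fingers, from 0 to 36, and 289 of them had at least 1. The largest set, 77 genes, lies on chromosome 7, and 39 lie on chromosome 17.

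Stretches of Zfp promoters are shown first, since 14 of these genes hold the core of a site bound by one of their own family. RefSeq promoters on GRCm38.p6, from 250 bases before to 50 bases after the gene start, were at hand for 246 of the 292 genes and 27025 genes in all. The core of the site bound by Zfp143, itself a member and an activator of promoters, was searched on both strands as CCCANNATGC. It was found in 14 Zfp promoters (5.69%) and in 1.93% of all promoters. These sets are unlike, since all promoters were not limited to genes listed in the time series. In 6 of the 16 sites the letters ACTACA stood in the 15 bases before the core. The 6 are printed first below, followed by a site each of Zfp94, which neighbours Zfp108, Zfp109 and Zfp111 on chromosome 7, and of Zfp184, whose RNA fell. Capitals mark the core, and the letters before it can be compared from line to line.
Zfp108: tccagaactacaattCCCAGAATGCctcgg
Zfp109: gccggaactacagttCCCAGAATGCgtcag
Zfp111: tttgggactacatttCCCAGAATGCtaaag
Zfp1: tgtaggactacaattCCCATAATGCctctg
Zfp169: gggggaactacaataCCCAGAATGCcgcgt
Zfp418: gtaggaactacattaCCCACAATGCcaaga
Zfp94: atttgaactacgcttCCCAGAATGCtcggc
Zfp184: caaaggaccacaattCCCAGAATGCaacgc

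The sites stand on GRCm38.p6 at chr7:24254714-24254743, minus strand, for Zfp108; chr7:24237706-24237735, plus strand, for Zfp109; chr7:24208196-24208225, plus strand, for Zfp111; chr8:111643405-111643434, minus strand, for Zfp1. Those of Zfp169, Zfp418, Zfp94 and Zfp184 lie at chr13:48513496-48513525, plus strand, at chr7:7171248-7171277, plus strand, at chr7:24316672-24316701, plus strand and at chr13:21944954-21944983, minus strand. The core was held by 7 of 109 promoters of genes that fell between E14 and P0, by 1 of 19 of genes that rose and by 6 of 118 of the others. Of 9 motifs searched, the ETS core CCGGAAG stood in 22.0% of Zfp promoters against 9.12% of all, the NRF1 core GCGCNTGCGC in 9.76% against 4.78%, the YY1 core (AA, then A or G, then ATGGC) in 10.2% against 4.33%, the E-box CACGTG in 7.72% against 7.24%, the CRE TGACGTCA in 2.44% against 1.88%, the E2F site TTTCCCGC in 2.03% against 1.11%, the CCAAT box in 47.6% against 37.9% and the TATA box (TATAAA) in 6.50% against 14.2%. The median number of CpG dinucleotides was 15 in Zfp promoters and 7 in all. Each motif was counted on both strands, and motifs may overlap one another. All promoters again include genes not listed in the time series, so no difference in share is read as particular to Zfp genes. These letters describe the windows and were not tested as binding sites.

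Between E14 and P0, RNA of Zfp genes in GFP+ cells moved mostly downward. Of the 292 genes, 136 fell, 22 rose and 134 did not pass the test (limma, adjusted p under 0.05). Lower calls made up 46.6% of Zfp genes and 30.6% of all 10781 genes tested. Higher calls made up 7.53% of Zfp genes and 25.1% of all genes. The median log2 change was -0.25 for Zfp genes and -0.05 for all genes, and 77.7% of Zfp genes had a negative value. In 134 of the 136 genes that fell and 21 of the 22 that rose, the 3 libraries of E14 and the 3 of P0 did not overlap. Passing the test already favours such separation, and the share over all called genes was not counted, so this adds no further support. The changes were moderate: 7 genes fell and 4 rose by at least 2-fold. No such count was made over all genes, so nothing particular to Zfp genes is read from it. The lower and upper quartiles of the log2 change were -0.47 and -0.03 for Zfp genes and -0.33 and 0.26 for all genes. The lowest value was -1.46 among Zfp genes and -3.14 among all genes. With libraries rescaled to equal totals, the Zfp median was -0.22 and stood 0.19 below that of all genes, as it did before. Any change over the 3 ages was called in 166 Zfp genes (56.8%) and in 59.7% of all genes, so the share called was near that of genes at large. Counts here are of bulk RNA, in which fewer cells of a type and less RNA per cell cannot be told apart. Of 7 progenitor markers, 3 were in the time series table, and their sum ranged from 4047 to 4306 normalized reads at E14, from 2737 to 3128 at E16 and from 2202 to 4403 at P0. The sum of the GABA neuron markers Gad1 and Gad2 ranged from 3031 to 3649 at E14, from 4510 to 4775 at E16 and from 2889 to 4700 at P0. At E16, then, every library lay below those of E14 for the first sum and above them for the second, while at P0 the ranges of both sums overlapped those of E14. The glutamate neuron marker Slc17a6 ranged from 4931 to 5099.5 at E14, from 5269 to 6298 at E16 and from 5111 to 8294 at P0. Its P0 libraries thus all lay above those of E14. Pitx3 fell from a mean of 818 at E14 to 381 at P0 (SD 59.0 and 19.1, n = 3). The sum of 9 dopamine neuron markers ranged from 87465 to 99690 at E14 and from 77176 to 109170 at P0. The part of these markers in the Zfp changes was not tested.

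**Figure D1:**
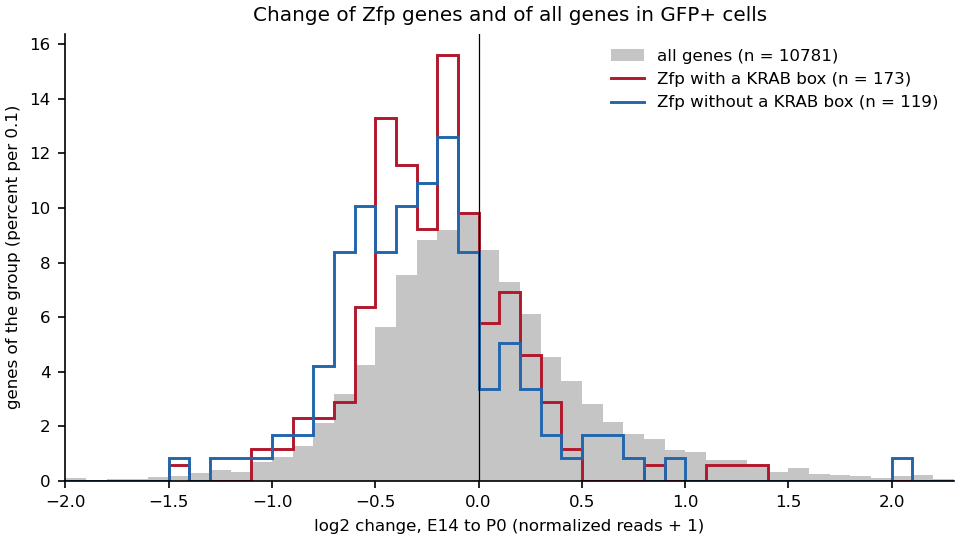
The histogram plots the log2 change from E14 to P0 (x axis, of normalized reads + 1) against the percent of genes of each group per bin of 0.1 (y axis). Both Zfp outlines, with a KRAB box (173 genes) and without (119), overlap the grey bars of all 10781 genes. Their medians lie further left, at -0.21 and -0.29 against -0.05.

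The genes with the largest falls included regulators of neural development. Zfp663 (chromosome 2, 165351297 to 165368729), a KRAB gene, had in its 3 libraries per age 522, 513 and 593 at E14, 451, 403 and 462 at E16 and 218, 207 and 167 at P0, in normalized reads. The 3 ages did not overlap, and the log2 change from E14 to P0 was -1.46 (SE 0.12, adjusted p = 3.6e-07). Zfp423 (chromosome 8, 87661810 to 87959595), a protein with many fingers that binds Ebf and Smad factors and is needed for cerebellar development, had 999.8, 857 and 1088 at E14, 496, 511 and 568 at E16 and 391, 346 and 341 at P0. Most of its fall was complete by E16, with a log2 change of -0.90 (SE 0.11, adjusted p = 4.3e-05) in that interval and -1.44 (SE 0.11, adjusted p = 1.2e-07) in all. Zfp143 (chromosome 7, 110061217 to 110095394), whose site was printed above, had 1169, 1149 and 1296 at E14, 830.2, 503 and 749 at E16 and 499, 471 and 496 at P0. The lowest E14 library stood at more than 2 times the highest P0 library, one E16 library lay far below the other two, and the log2 change from E14 to P0 was -1.30 (SE 0.14, adjusted p = 4.4e-06).

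Zfp41 (chromosome 15, 75616679 to 75629827) had the most normalized reads of these genes, 1883, 2024 and 1964 at E14, 1185, 1387 and 1357 at E16 and 763, 935 and 904 at P0, and fell by similar steps in both intervals to a log2 change of -1.18 (SE 0.09, adjusted p = 2.0e-07). Zfp773 (chromosome 7, 7127073 to 7136755), a KRAB gene, had 1247, 1134 and 1202 at E14, 984, 846 and 931 at E16 and 612, 641 and 486 at P0, with a log2 change of -1.05 (SE 0.11, adjusted p = 2.1e-06). All 3 ages stood apart from one another in both genes. Zfp609 (chromosome 9, 65692391 to 65827564), which acts in cortical neuron migration in mice, had 492, 477 and 642 at E14, 459, 282 and 381 at E16 and 309, 206 and 278 at P0. Its libraries varied more within an age, and the log2 change was -1.03 (SE 0.19, adjusted p = 0.00035). The calls of these 6 genes from E14 to P0 were kept when any 1 library was left out.

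The rise of a few members ran against this trend, and the largest belonged to a gene in whose annotated protein the search found no C2H2 finger. Zfp365 (chromosome 10, 67886103 to 67912662), a centrosomal protein that binds Disc1 and is known for roles in neurite growth, had 125, 129 and 116 at E14, 275, 321 and 277 at E16 and 481, 506 and 541 at P0. It rose before and after E16, by a log2 change of 1.23 (SE 0.12, adjusted p = 6.6e-06) and then 0.81 (SE 0.12, adjusted p = 0.00026), and by 2.03 (SE 0.12) in all. Zfp92 (chromosome X, 73411096 to 73428385), an X-linked KRAB gene, had 181, 274 and 239.8 at E14, 411, 389 and 397 at E16 and 552, 608 and 558 at P0, a log2 change of 1.32 (SE 0.14, adjusted p = 2.1e-06). Both genes stepped up at each age with no overlap between ages.

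Zfp52 (chromosome 17, 21535539 to 21562601), a KRAB gene, had 166, 139 and 165 at E14, 281, 262 and 311 at E16 and 331, 357 and 421 at P0, with a log2 change of 1.23 (SE 0.13, adjusted p = 3.7e-06). Zfp982 (chromosome 4, 147492417 to 147513486) rose by 1.19 (SE 0.13, adjusted p = 3.9e-06), but 30.1% of the 32-base words of its exons also occur in other genes, so reads of near copies may be split. Zfp467 (chromosome 6, 48427697 to 48445825), known in marrow stromal cells for favouring fat over bone formation, rose by 0.98 (SE 0.13, adjusted p = 2.9e-05). Zfp641 (chromosome 15, 98285585 to 98296161), a KRAB gene, had 844, 878 and 774 at E14, 1062, 1179.7 and 1099 at E16 and 1467, 1506 and 1499 at P0 and the smallest spread of the 6, with a log2 change of 0.84 (SE 0.08, adjusted p = 1.1e-06). Over all Zfp genes, 17 had more than 50% of their words in common with other genes. Among the other 275 genes, 134 fell, 20 rose and the median was -0.26. Some of these that are described in this report are affected in part. Zfp773 shared 27.9% of its words, Zfp93 28.3% and Zfp28 25%. Other genes overlap 28.7% of the exon bases of Zfp532 and 26.1% of those of Zfp106.

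**Figure D2:**
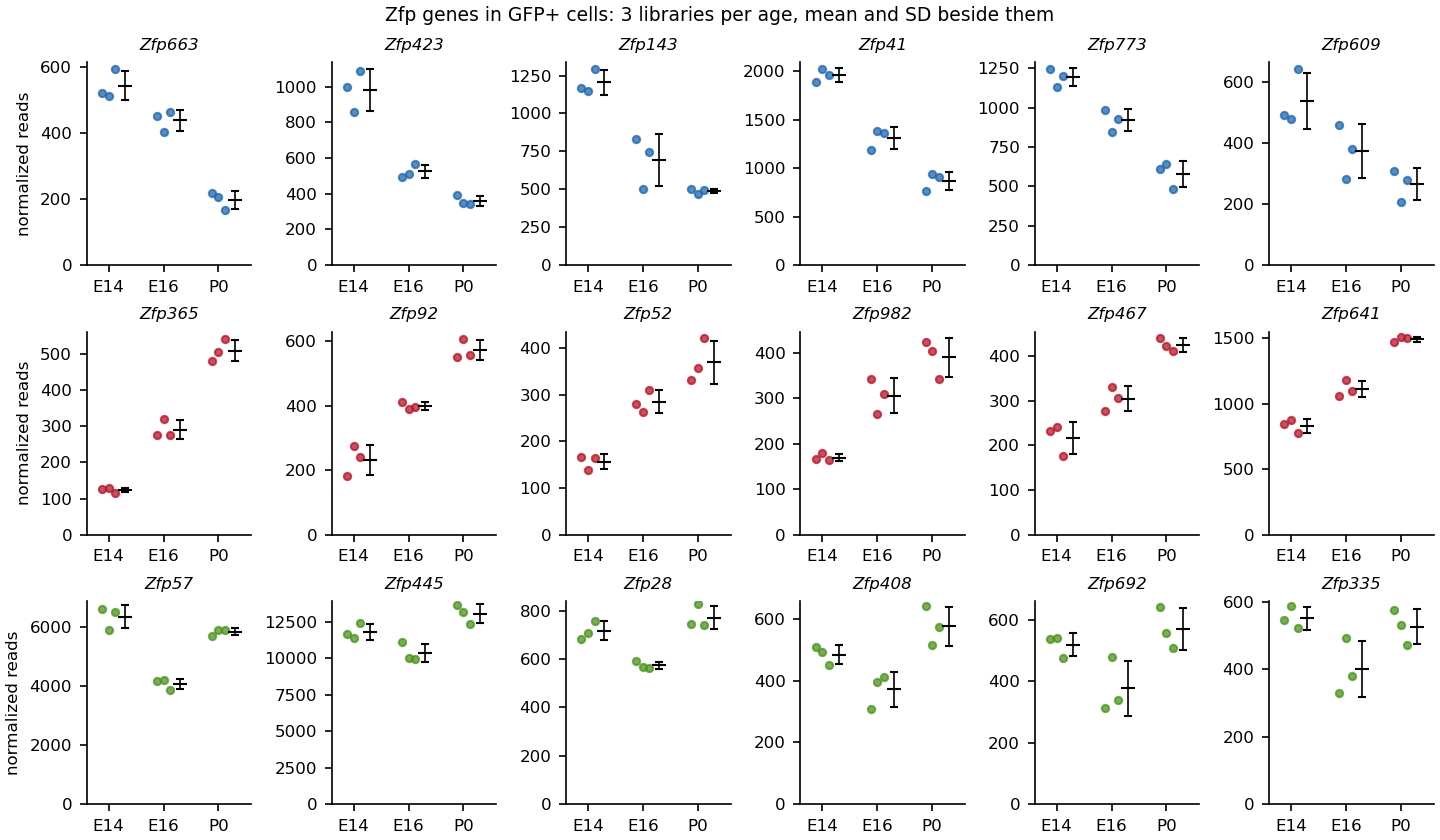
Points give the normalized reads (y axis, from 0) of each of the 3 libraries at E14, E16 and P0 (x axis), with the mean and SD beside them, for the 6 Zfp genes with the largest falls (top), the 6 with the largest rises (middle) and 6 that were lower at E16 than at either other age (bottom). Zfp365 climbs from 116 to 541 across the ages, while Zfp57 dips from 5913 or more to 4196 or less at E16.

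Set apart by structure, KRAB genes and the others both had far more falls than rises. Of the 173 KRAB genes, 77 fell and 11 rose, with a median log2 change of -0.21. Of the 119 without the box, 59 fell and 11 rose, with a median of -0.29. The difference between the classes was not tested. By number of fingers, 49 of 98 genes with at least 13 fingers fell and 4 rose, 57 of 119 with 8 to 12 fell and 8 rose, and 27 of 64 with 2 to 7 fell and 7 rose. The 11 genes with 1 finger or 0 split evenly, with 3 that fell, Zfp609 among them, and 3 that rose, Zfp365 and Zfp704 among them. The median log2 change of these 11 was -0.02.

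Of the 5 members with the most normalized reads, 4 fell and Zfp445, described further on, was not called. Zfp638 (chromosome 6, 83867109 to 83989550), a nuclear RNA-binding protein known for silencing unintegrated retroviral DNA in human cells, had the most normalized reads, 15719.7, 15508 and 16272 at E14, 16216, 12852 and 14611 at E16 and 12361, 12766 and 11395 at P0, and fell by 0.38 on the log2 scale (SE 0.09, adjusted p = 0.0020). Zfp292 (chromosome 4, 34803113 to 34882960), whose human counterpart is mutated in intellectual disability, had 10869, 10432 and 10868 at E14, 9623, 8008 and 9099 at E16 and 6688, 6844 and 5984 at P0. It fell by 0.72 on the log2 scale (SE 0.08, adjusted p = 5.0e-06). Zfp266 (chromosome 9, 20495068 to 20521417), a KRAB gene that hinders reprogramming of mouse fibroblasts, had 9016, 8861 and 9022 at E14, 8173, 6918 and 7467 at E16 and 6067, 6362 and 5352 at P0 and fell by 0.60 on the log2 scale (SE 0.08, adjusted p = 2.9e-05). Zfp644 (chromosome 5, 106616739 to 106697287), a partner of the histone methyltransferases Ehmt1 and Ehmt2, fell less, with a log2 change of -0.30 (SE 0.08, adjusted p = 0.0041). Levels can be compared between genes only per length: per kilobase of exon, Zfp genes ranged from 21.5 to 2332 normalized reads with a median of 163. Zfp428 was highest at 2332, named here because it tops this order, followed by Zfp445 at 1583, Zfp57 at 1432, Zfp266 at 1062 and Zfp207 at 979. Another gene overlaps 17.7% of the exon bases of Zfp428, so some of its reads may not be its own.

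Of 33 members listed for a known role, 27 were measured, of which 13 fell, 1 rose and 13 did not pass the test. The share that fell is near the 46.6% of all Zfp genes. Zfp462, whose human counterpart is mutated in a neurodevelopmental syndrome, fell by 0.77 on the log2 scale (SE 0.08, adjusted p = 3.1e-06). Zfp536, a repressor of neuronal differentiation, had 988, 978 and 910.2 at E14, 759, 772 and 859 at E16 and 710.3, 611 and 411 at P0, and fell by 0.77 on the log2 scale (SE 0.15, adjusted p = 0.00070). Zfp608, a relative of Zfp609, had a log2 change of -0.68 and Zfp281, a repressor of pluripotency genes, one of -0.49. Zfp711, an X-linked intellectual disability gene in humans, had -0.43, Zfp568, a KRAB repressor of a placental Igf2 transcript, -0.46, and Zfp110, which binds the p75 neurotrophin receptor, -0.38 (adjusted p between 3.1e-05 and 0.0072 for these 5). Zfp516, an activator of brown fat genes, fell by 0.59 on the log2 scale (SE 0.20, adjusted p = 0.020), a call that was lost when either of 2 E14 or 2 P0 libraries was left out, with adjusted p from 0.050 to 0.099 in those 4 fits.

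Zfp704 was the member of this list that rose. It had 3458, 3068 and 2676 at E14, 4270.2, 3666 and 4303 at E16 and 5404, 5343 and 4919 at P0, with a log2 change of 0.77 (SE 0.10, adjusted p = 1.1e-05), and 16.6% of its exon bases overlap another gene. Members with no call included Zfp106, an RNA-binding protein needed by motor neurons, at 3372, 3232 and 3477 at E14, 3202, 2991 and 3130.0 at E16 and 3192, 3163 and 3216 at P0, where all 9 libraries lay within a narrow band. Its log2 change was -0.07 (SE 0.07, adjusted p = 0.36). Zfp207, which binds microtubules and Bub3, had -0.13 (SE 0.07, adjusted p = 0.10), Zfp91, a ubiquitin ligase, -0.10 (SE 0.07, adjusted p = 0.22), and Zfp148, which binds GC-rich promoters, -0.14 (SE 0.08, adjusted p = 0.16). Zfp521, a close relative of Zfp423 that promotes neural fate in mouse embryonic stem cells, had 1842, 1862 and 1601 at E14, 1637, 1785 and 1762 at E16 and 1347, 1514 and 1723 at P0, with a log2 change of -0.21 (SE 0.10, adjusted p = 0.072). Zfp326, Zfp369, Zfp598, a ubiquitin ligase of collided ribosomes, Zfp809, a KRAB silencer of retroviruses, and Zfp830 were likewise not called, with log2 changes from -0.29 to 0.02.

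Split at E16, the early interval held 71 falls and 13 rises among Zfp genes, and the late interval 79 falls and 21 rises. From E14 to E16, 24.3% of Zfp genes fell against 17.8% of all genes, and 4.45% rose against 15.2%, with medians of -0.14 and -0.04. From E16 to P0, 27.1% fell against 16.6% of all genes, and 7.19% rose against 16.8%, with medians of -0.12 and -0.01. Without the second E14 library the early falls numbered 47. Without the third E16 library the late falls numbered 43, and without the third P0 library 48. In both intervals, 23 genes fell and 6 rose: Zfp365, Zfp92, Zfp52, Zfp467, Zfp641 and Zfp704. The matching shares over all genes were not counted, so nothing particular to Zfp genes is read from these counts. The late rise of Zfp52 (adjusted p = 0.046) was lost in 7 of the 9 fits that left out a library, with adjusted p from 0.050 to 0.17, and the early rise of Zfp467 was lost without the third E14 library (adjusted p = 0.051). The progenitor and GABA neuron marker sums given above also moved between E14 and E16, and their part in the early changes was not tested. The early and late intervals were next compared as wholes and not per day, so their changes are not rates. The change after E16 was higher than the change before it in 17 Zfp genes (5.82%, against 8% of all genes) and lower in 5 (1.71%, against 5.62%). With equal totals these counts were 11 and 7. Leaving out the first or second E14, the first or the third E16 or the second P0 library gave 7 to 11 of the first kind, and leaving out the second E14 or the first or the third E16 library gave 1 or 2 of the second.

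Zfp57, a protector of imprinted genes, fell and then rose. Zfp57 (chromosome 17, 37001163 to 37010635), a KRAB protein that keeps DNA methylation at imprinted regions, had 6617, 5913 and 6519 at E14, 4157, 4196 and 3867 at E16 and 5709, 5907 and 5907 at P0. The 3 E16 libraries lay far below the other 6. Zfp57 fell by 0.64 on the log2 scale (SE 0.07, adjusted p = 1.8e-05), rose by 0.52 (SE 0.07, adjusted p = 0.00013), and had a late minus early difference of 1.16 (SE 0.12, adjusted p = 0.00015), which was kept with any 1 library left out. Its partner in imprint protection, Zfp445 (chromosome 9, 122844529 to 122866006), had 11625, 11384 and 12407 at E14, 11078, 10018 and 9936 at E16 and 13623, 13170.5 and 12338 at P0. The early log2 change of Zfp445 was -0.19 (SE 0.07, adjusted p = 0.064), the late one 0.34 (SE 0.07, adjusted p = 0.0041) and the difference 0.53 (SE 0.13, adjusted p = 0.017). Without the third E16 library that difference had an adjusted p of 0.095. From E14 to P0 neither gene passed the test, at -0.12 and 0.14.

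In all, 9 Zfp genes fell and then rose, Zfp57, Zfp28, Zfp335, Zfp408, Zfp692, Zfp740, Zfp61, Zfp672 and Zfp810, all named because the count is small, and 1, Zfp300, rose and then fell. The first pattern was called in 2.88% of all genes, close to the share of Zfp genes, and the second in 0.863%. The count of 9 was 5 with equal totals or without the second E14 library, and that of 1 was 0 with the block and when any of 6 libraries was left out. Zfp28 (chromosome 7, 6383295 to 6396915), a KRAB gene, had 685, 710.0 and 759 at E14, 591, 567 and 565 at E16 and 745, 826 and 741 at P0, with a difference of 0.74 (SE 0.15, adjusted p = 0.0075). Zfp408 (chromosome 2, 91643669 to 91649791), whose human counterpart is mutated in retinal vessel disease, had 509.9, 493 and 451 at E14, 308, 395 and 412 at E16 and 641, 515 and 575 at P0, with a difference of 1.03 (SE 0.22, adjusted p = 0.0084). These 2 differences were kept with any 1 library left out, but the early falls were not. That of Zfp408 was lost without the first or second E14 or the first E16 library (adjusted p from 0.082 to 0.11) and that of Zfp28 without the third E14 library (adjusted p = 0.054). Those of Zfp692, 1.10 (SE 0.26, adjusted p = 0.013), and of Zfp335, 0.89 (SE 0.24, adjusted p = 0.025), were lost without the third E16 library or others, as were their early falls without some libraries; Zfp335 is needed by mouse neural progenitors, and 28.3% of its exon bases overlap other genes.

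Zfp genes of chromosome 17 showed how differently close relatives moved. Of the 39, 19 fell and 1 rose. Zfp51 and Zfp52 are separated by one gene, Zfp53, in the order of Zfp genes along the chromosome. Zfp51 (chromosome 17, 21450374 to 21465587) had 407, 511 and 495 at E14, 396, 436 and 378 at E16 and 267, 236 and 197 at P0 and fell by 1.01 on the log2 scale (SE 0.13, adjusted p = 2.2e-05), with most of that after E16. Zfp53 had a log2 change of -0.12 (SE 0.12, adjusted p = 0.39), and Zfp52, described above, rose by 1.23. The Zfp51 and Zfp52 proteins were identical at 65.5% of aligned positions, and Zfp53 shared 77.2% with Zfp51 and 65.8% with Zfp52. The last finger of Zfp51 and of Zfp52 to match a strict finger pattern is printed as its coding sequence from GENCODE M21. They are residues 721 to 746 of Zfp51 and 636 to 661 of Zfp52. These 2 fingers were not paired by alignment and may not correspond, so they do not show how the copies differ. The printed stretches differ ahead of the first histidine codon and are the same from there through the linker. Capitals mark the codons of the 2 cysteines and 2 histidines.
Zfp51: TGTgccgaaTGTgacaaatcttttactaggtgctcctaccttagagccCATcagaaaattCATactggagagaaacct
Zfp52: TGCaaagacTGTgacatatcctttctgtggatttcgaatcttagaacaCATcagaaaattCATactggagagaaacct

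Zfp51 shared 9.16% of its 32-base exon words with other genes and Zfp52 8.59%, so most of each gene could be counted apart from its relatives. Other genes of the chromosome that fell were Zfp101 at -0.91, Zfp760 at -0.83 and Zfp983 at -0.48, named after their values were seen. On chromosome 7, 36 of 77 genes fell and 4 rose. On chromosome 8, 12 of 22 fell and 0 rose, and on chromosome 13, 11 of 18 fell and 2 rose. Over all Zfp genes 46.6% fell and 7.53% rose, against 30.6% and 25.1% of all genes. Among chromosomes with at least 9 Zfp genes, the share that fell ranged from 20% on chromosome 2 to 88.9% on chromosome 18. Differences between chromosomes were not tested.

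**Figure D3:**
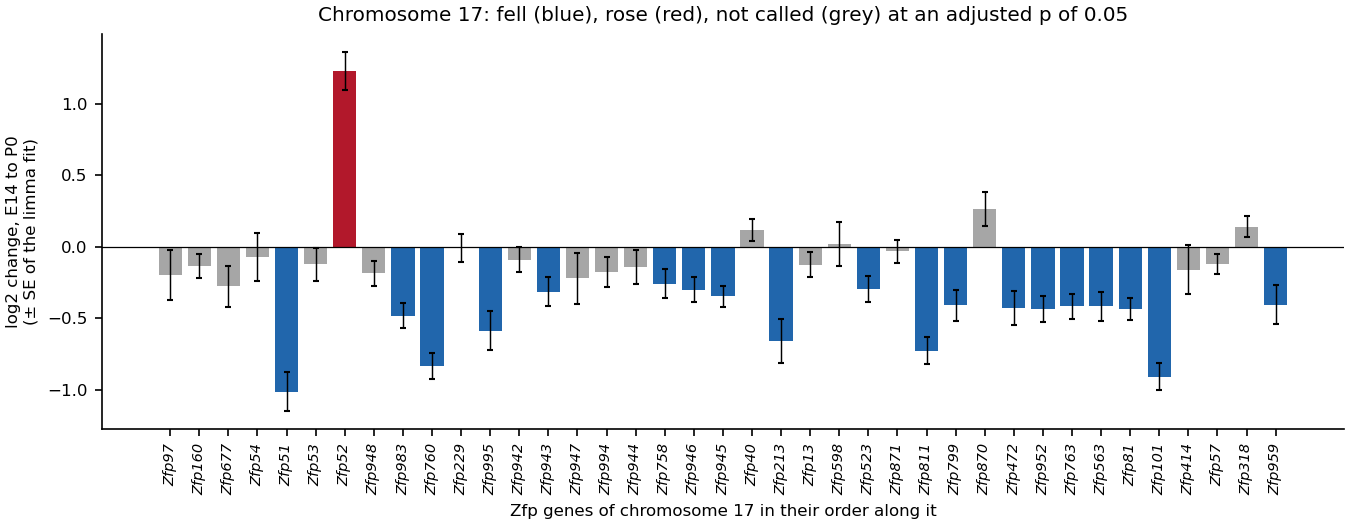
Bars give the log2 change from E14 to P0 (y axis, with the SE of the limma fit) of the 39 Zfp genes of chromosome 17 in their order along it (x axis, not to scale). The red bar of Zfp52, at 1.23, stands 2 places from the blue bar of Zfp51, at -1.01, with Zfp53 between them.

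Between GFP+ and GFP- cells at E14, a minority of Zfp genes passed the test, on the deposited scaling mostly as higher in GFP+ cells. GFP+ cells had higher levels of 27 of the 292 genes and lower levels of 7, or 9.25% and 2.40%, against 12.7% and 18% of the 18260 genes tested. The median log2 difference was 0.07 for Zfp genes and 0.02 for all genes. These shares are not for like sets, since the 292 genes had to be listed in the time series of GFP+ cells. Without that filter the same rule finds 343 genes in the sort. Among the 10699 genes of both experiments the median was 0.04, and 56.9% of differences were positive against 64.4% for Zfp genes. The direction rests on the scaling: with equal library totals the Zfp median was -0.02 and that of all genes -0.07, with 9 higher and 15 lower calls, and the gap between the medians was 0.05 in both. With the replicate number as a block, 76 Zfp genes were higher and 19 lower, against 22.7% and 23.6% of all genes. Higher calls numbered 14 without the second GFP- library, 12 without the third and 15 without the third GFP+ library. Lower calls numbered 4 and 3 without the second and the third GFP- library, and 11, 4 and 1 without the first, the second and the third GFP+ library.

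Zfp618 (chromosome 4, 62965573 to 63139708), a partner of Uhrf2 at hydroxymethylated DNA, had 2075, 2321 and 2191 in GFP- and 3301, 3290.0 and 3317 in GFP+ cells. The groups lay well apart, and the log2 difference of 0.59 (SE 0.07, adjusted p = 8.5e-05) was the largest in favour of GFP+ cells. In the time series it fell from E14 to P0 by 0.89 on the log2 scale (SE 0.08, adjusted p = 4.3e-07). The KRAB genes Zfp551, with 374, 396 and 369.9 in GFP- and 541, 523 and 537 in GFP+ cells, with a difference of 0.49 (SE 0.09, adjusted p = 0.0018), Zfp28, at 0.48 (SE 0.09, adjusted p = 0.0016), Zfp949, at 0.42 (SE 0.09, adjusted p = 0.0032), and Zfp78, at 0.45 (SE 0.14, adjusted p = 0.026), were also higher in GFP+ cells. Zfp784 had 0.42 (SE 0.14, adjusted p = 0.047), but 94.8% of its exon bases lie in other genes, so its reads cannot be assigned with certainty. Zfp773, Zfp609, Zfp292 and Zfp827 of the genes that fell with age were higher in GFP+ cells as well, by 0.36, 0.36, 0.39 and 0.35 (adjusted p = 0.023, 0.013, 0.029 and 0.0053).

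Zfp931 (chromosome 2, 178067695 to 178078476), a KRAB gene with 37.4% of its words in common with other genes, had 389.6, 385 and 402 in GFP- and 282, 217 and 222 in GFP+ cells. Its groups did not overlap, and its difference of -0.71 (SE 0.13, adjusted p = 0.0011) was the largest in favour of GFP- cells. Zfp93 at -0.52 (SE 0.15, adjusted p = 0.025), Zfp111 at -0.47 (SE 0.15, adjusted p = 0.037), Zfp239 at -0.45 (SE 0.15, adjusted p = 0.038), Zfp870 at -0.36 (SE 0.10, adjusted p = 0.014) and Zfp120 at -0.33 (SE 0.11, adjusted p = 0.046) were lower in GFP+ cells, and each of these 5 calls was lost on leaving out at least 1 library, as were those of Zfp78, Zfp784, Zfp773, Zfp609 and Zfp292. Several members passed the test with the block and not without it: Zfp57, with 4403, 3334 and 2801 in GFP- and 6293, 3962 and 4219 in GFP+ cells, had a log2 difference of 0.45 (SE 0.18, adjusted p = 0.086) and a blocked adjusted p of 8.9e-07, and Zfp445 had 0.27 (SE 0.12, adjusted p = 0.099) and a blocked adjusted p of 0.00029. Zfp365 had 111, 169.8 and 158 in GFP- and 98.1, 102 and 105 in GFP+ cells, a difference of -0.50 (SE 0.18, adjusted p = 0.061) and a blocked adjusted p of 0.0096, in favour of GFP- cells.

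The median GFP+ minus GFP- difference at E14 was 0.11 on the log2 scale for the 136 genes that fell with age, 0.04 for the 134 not called and -0.12 for the 22 that rose. The progenitor marker sums given above differ between the same sorted groups, and their part in these differences was not tested. The difference was positive in 102 (75%) of the genes that fell and negative in 15 (68.2%) of those that rose. These signs rest on the deposited scaling, since with equal totals the share of negative differences over all Zfp genes went from 35.6% to 55.8%. Among genes at large, 63.5% of those that fell and 48.5% of those that rose had a positive difference, and the distinction between Zfp genes and others was not tested. The sorted GFP+ and time series E14 samples are separate samples. Over the 292 genes the Spearman correlation of the 2 log2 values was -0.23, given as a description across genes that share libraries.

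**Figure D4:**
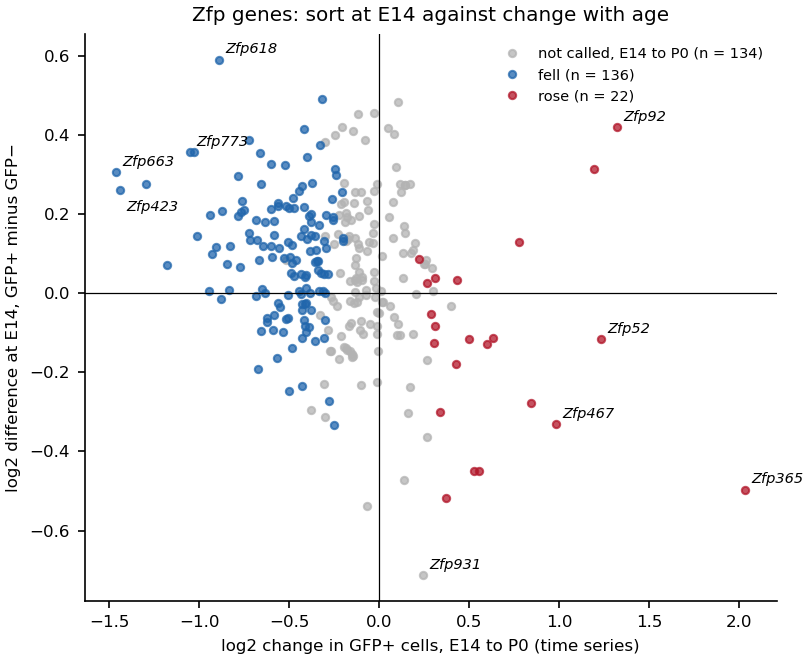
Each point is a Zfp gene, with its log2 change from E14 to P0 on the x axis and its log2 difference of GFP+ minus GFP- cells at E14 on the y axis. On the deposited scaling, 102 of the 136 blue genes (fell) lie above the horizontal line and 15 of the 22 red genes (rose) below it, and Zfp365 stands at the far right below it.

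Most of the co-factors through which KRAB proteins silence genes fell. For this machinery 39 symbols were listed, which may include older and newer names of the same gene, such as Fam208a and Tasor. Of these, 36 were measured, of which 23 fell and 3 rose, against 30.6% and 25.1% of all genes. Their median log2 change was -0.32. Trim28, which KRAB boxes recruit, went from 6159 ± 316 at E14 to 3369 ± 212 at P0 (mean ± SD, n = 3), a log2 change of -0.87 (SE 0.10, adjusted p = 4.5e-06). Hdac2, a deacetylase of NuRD, went from 14317 ± 1394 at E14 to 7159 ± 267 at P0, a change of -0.996 (SE 0.09, adjusted p = 4.9e-07). Of the other NuRD subunits listed, Gatad2a fell with a log2 change of -0.95 (SE 0.09, adjusted p = 8.7e-07), Mta2 with -0.83 (SE 0.08, adjusted p = 1.0e-06) and Chd4, its remodelling ATPase, with -0.64 (SE 0.09, adjusted p = 3.1e-05), and Mta1, Mbd3, Gatad2b, Chd3 and Rbbp4 fell as well. Hdac1 at -0.19, Mbd2 at 0.05 and Mta3 at 0.02 did not pass the test (adjusted p = 0.17, 0.67 and 0.90), and Rbbp7 rose. The histone methyltransferases differed, with Ehmt1 at -0.76 and Setdb1 at -0.27 (adjusted p = 2.3e-06 and 0.0054), and Ehmt2 at -0.06 (adjusted p = 0.60).

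The 3 that rose were Rbbp7, a histone chaperone of NuRD, at 0.46 (SE 0.07, adjusted p = 0.00013), Dnmt3a, a de novo DNA methyltransferase, at 0.37 (SE 0.07, adjusted p = 0.00036), and Atrx, a chromatin remodeller, at 0.26 (SE 0.10, adjusted p = 0.036). Dnmt1, the maintenance DNA methyltransferase, fell by 0.43 on the log2 scale (SE 0.07, adjusted p = 7.6e-05). In the sort at E14, GFP+ cells had higher levels of 3 of 37 machinery genes and lower levels of another 3, against 12.7% and 18% of all genes, and Trim28 had a log2 difference of 0.13 (adjusted p = 0.23).

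Outside the Zfp naming rule, 87 measured entries stood for 86 zinc finger gene symbols. Of these entries 33 fell and 13 rose, against 30.6% and 25.1% of all genes. Their median log2 change was -0.15 against -0.05. Since falls outnumbered rises among all genes too, nothing particular to the following families is read from their counts. Of 35 Zbtb genes, whose proteins join fingers to a BTB domain, 15 fell and 4 rose. Of 22 Zfp genes with a letter in the symbol, 6 fell and 2 rose. Of 12 Zkscan entries, which stood for 11 symbols, 5 fell and 4 rose. Of 8 Zscan genes 4 fell and 1 rose, and of 9 Klf genes 3 fell and 2 rose. The extremes were Zbtb40 at -1.34 (SE 0.14, adjusted p = 2.7e-06) and Zkscan16 at 1.53 (SE 0.15, adjusted p = 1.5e-06).

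Circular RNAs (circRNAs) are closed loops made by back-splicing, counted from reads across the back-splice junction. In the time series, 107 of 7528 circRNAs came from 39 Zfp hosts, and 38 of them passed the filter of a mean of at least 2 normalized reads. Of these 38, 0 were higher and 1 was lower at P0 than at E14 (limma), against 1.23% and 1.96% of the 1630 circRNAs tested, and 9 had an unadjusted p under 0.05. Their median log2 change was -0.34 and that of all tested circRNAs -0.36. The one called was circ_00017_Zfp827, the most abundant Zfp circRNA. It had 163, 153 and 115 at E14, 125, 80.2 and 127 at E16, 64.4, 96.1 and 62.8 at P0, in normalized reads, with no overlap between E14 and P0. Its log2 change was -0.95 (SE 0.24, adjusted p = 0.037), a call that was lost with equal totals and when any of 6 of the 9 libraries was left out.

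Summed over all circRNAs of a host, 12 Zfp hosts could be tested, and Zfp827 was the one that passed (limma), as a fall, against 3.45% higher and 7.19% lower of 695 hosts. Zfp827 (chromosome 8, 79028437 to 79193766) has a human counterpart whose circRNA restrains genes of neuronal differentiation in cell lines. Its circRNA sum stood at 208, 205 and 172 at E14, 169, 115 and 179 at E16, 95.8, 112 and 104 at P0, a log2 change of -0.89 (SE 0.19, adjusted p = 0.0054) that was called under every alternative and with any 1 library left out. The Zfp827 gene itself had 1745, 1755 and 1894 at E14, 1473, 1494 and 1688 at E16 and 1200.5, 1110.3 and 1099.9 at P0 and fell by 0.66 on the log2 scale (SE 0.08, adjusted p = 1.1e-05). The ratio of circRNA sum to gene changed by -0.23 on the log2 scale, with a 95% interval from -0.70 to 0.24 (adjusted p = 0.59). No Zfp host of 12 had a called ratio, against 1.03% higher and 1.32% lower of the 680 hosts tested.

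The sums of the other hosts had no called change. The sum of Zfp148 stood at 138, 119 and 131 at E14, 148, 118 and 144 at E16, 134, 134 and 141 at P0, with overlapping ages and a log2 change of 0.08 (SE 0.18, adjusted p = 0.82). That of Zfp644 changed by -0.11 (SE 0.22, adjusted p = 0.79) while its gene fell by 0.30 on the log2 scale. The sums of Zfp609, a host known for a circRNA that can be translated in muscle cells, and Zfp532 had -0.70 (adjusted p = 0.14) and -0.86 (adjusted p = 0.11), and did not pass. P0 libraries held 11196 to 18097 circRNA reads and E14 libraries 24760 to 32905, so low circRNAs were measured least precisely at P0. In the sort at E14, 74 of 3927 circRNAs came from Zfp hosts. The authors' deposited table gave an adjusted p for 28 of them, none under 0.05 and the smallest 0.366, and listed its most abundant Zfp827 circRNA with a log2 difference of -0.03. The circRNA numbers belong to each table and no coordinates came with them, so circRNAs of the 2 experiments were not matched.

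**Figure D5:**
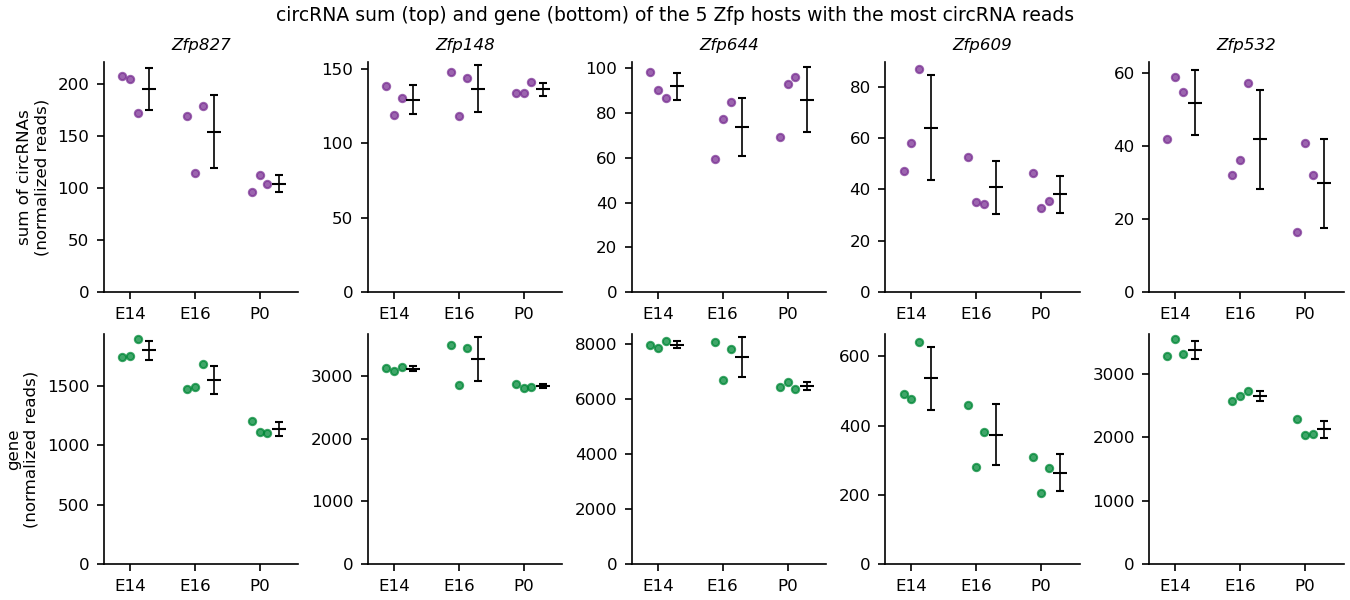
Points give the summed normalized reads of all circRNAs (top, y axis from 0) and of the gene (bottom) in each of the 3 libraries at E14, E16 and P0 (x axis) with mean and SD, for the 5 Zfp hosts with the most circRNA reads. The Zfp827 sum falls from 172 or more at E14 to 112 or less at P0 along with its gene, and the Zfp148 sum stays between 118 and 148.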

How the data were processed

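The deposited signal values are normalized reads for genes and for circRNAs, which the authors made by dividing each library by 1 factor. Per the submitters' processing notes, Trim Galore, TopHat2, DESeq2, GRCm38 and mm10 were used, without versions. How circRNAs were called and reads counted, and whether strand was used, is not given in the sources used here. Reads of overlapping genes on opposite strands therefore cannot be separated. Per the labels' protocols, total RNA came from the miRNeasy micro kit, was depleted with riboZero and was made into libraries with ScriptSeq v2. Log2 fold changes with p-values and adjusted p from the authors' own test were also deposited, per the file headers. The time series table holds genes with a mean of at least 107 normalized reads, a part of each library.

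Two-sided tests used the limma-trend method of limma 3.58.1 in R 4.3.3. Values entered as log2(normalized reads + 1), so changes of low genes are understated, and p-values were adjusted by Benjamini-Hochberg over all genes of a mean of at least 5 and a threshold of 0.05. The 9 time series libraries shared a fit, and the 6 sorted libraries another, since their tables were normalized separately. Single circRNAs needed a mean of at least 2, host sums at least 5. Depths are reads recovered from the constant step between values (100% whole within 0.1). Reads of the sorted table also entered edgeR 4.0.16 as an alternative. The limma code was tested on simulated data. KRAB boxes, fingers and exon words came from GENCODE M21 on GRCm38, read with Biopython 1.88.

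In the sorted table, the columns could be matched to their group and not to a sample, because titles and descriptions number the samples differently. Deviations of same-numbered columns correlated at 0.645, 0.357 and 0.234. As each was over 0.1, the numbers were taken as pairs, although differently numbered columns ranged from -0.542 to 0.395 and the third GFP- column correlated most with the second GFP+ column. This pairing is thus uncertain, and the blocked values are given where calls changed. The submitters do not say what the numbers stand for.

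The members, the lists and the rule for named genes were chosen with earlier results of these data known. Named were the 6 largest changes in each direction from E14 to P0 and in the sort, and the 3 largest before and after E16, among called genes whose libraries did not overlap. Added were the 5 genes with the most reads, the 5 hosts with the most circRNA reads, the host of any called circRNA and the listed known roles. Alternatives were a pseudocount of 10, other filters, equal library totals, the replicate block, the authors' test and each library left out.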

Additional observations from a re-analysis of the deposited data

How the results depend on the processing

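From E14 to P0, the counts of 22 higher and 136 lower Zfp genes and the median of -0.25 kept within 1.5 times or within the spread under every alternative run; leaving out 1 library gave 16 to 23 higher, 117 to 142 lower. For E14 to E16 lower calls ranged from 47 to 76 with 1 library left out, and the median was -0.10 with equal totals. For E16 to P0 lower calls ranged from 43 to 80. In the sort, the 27 higher calls became 9 with equal totals and 12 to 36 with 1 library left out, the 7 lower calls became 15 with equal totals, 4 with a mean of at least 200 and 1 to 11 with 1 library left out, and the median went from 0.07 to -0.024 with equal totals, whose scaling of the libraries shifts all genes alike. edgeR on recovered reads gave 23 higher and 9 lower, and the test of the authors' deposited table gave 25 and 5. The 17 genes with a higher change after E16 became 11 with equal totals and 7 to 21 with 1 library left out, and the 5 with a lower change 1 to 6. Genes that fell and then rose numbered 5 with equal totals and 5 to 9 with 1 library left out, and the gene that rose and then fell 0 to 1. Called circRNAs numbered 0 with equal totals, 2 with no filter, 2 with a pseudocount of 10 and 0 to 2 with 1 library left out.

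With the replicate block, the sort had 76 higher and 19 lower Zfp genes, 2 circRNAs were called, and the count of genes that rose and then fell was 0. In the time series, correlations ranged from -0.113 to 0.245 for same-numbered libraries and from -0.3 to 0.149 for differently numbered ones. Whether the numbers pair the samples there is not known, and the main fit assumed no pairing. The cause of these changes was not tested. Over the results of named genes, leaving out 1 library lost 137 calls, gained 41 and kept 2132 on the same side of the threshold, and none of these alternatives turned a direction. Depth limits circRNAs most, and genes under the deposited table's floor were not analysed here.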
